A study of Homo sapiens with 4 samples.

Results

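The MHC class II genes with CD74 and CIITA were described in C4-2, an established line of human prostate cancer cells. The 10 members, of 60483 gene rows in the files, are the transactivator gene CIITA, the invariant chain gene CD74, the classical chain genes HLA-DRA, HLA-DRB1, HLA-DPA1, HLA-DPB1, HLA-DQA1 and HLA-DQB1, and the peptide editor genes HLA-DMA and HLA-DMB. They were matched through their Ensembl identifiers, without version, to GENCODE 29 symbols on the primary assembly. The family was selected on its CPM (counts scaled to library size, with TMM factors) in these same 4 libraries, where CD74 was among the largest differences between the groups, so values of the members in that contrast are given as a description, without a test. RNA was sequenced from 2 control libraries (C4-2-CON) and 2 enzalutamide-resistant libraries (C4-2-ENZ). Enzalutamide is an androgen receptor antagonist, and the labels put culture with or without it at 1 month. Both groups are the same line, at passages 20 to 30, in RPMI medium with serum, and the growth text for all samples also names FGF-2. The labels do not say whether controls were given vehicle or whether the resistant cells are 1 clone, and drug exposure and resistance cannot be told apart.

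MHC class II molecules are pairs of an alpha and a beta chain that show peptides from the endosome to CD4+ T cells. CD74 binds new class II pairs in the endoplasmic reticulum, blocks their groove and guides them to endosomes, where cathepsins cut it down to the fragment CLIP. HLA-DM then exchanges CLIP for peptide. CIITA does not bind DNA itself: it is recruited by the factors RFX, CREB and NF-Y, which sit on the X, X2 and Y boxes of class II promoters. B cells, macrophages and dendritic cells make these genes constantly, while epithelial cells mostly make them after interferon gamma, which acts through IRF1 and other factors on CIITA.

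Gene counts totalled between 25589724 and 45033885 per library. Reads that did not align were 34.2% to 37.0% of HTSeq records in control and 20.3% to 20.7% in resistant libraries, and the part of this gap in the results was not tested. Nothing in the labels says that replicates came from separate cultures, so the spread between libraries may be technical. The prostate identity of the line was visible in all libraries: all 11 luminal markers of the list were tested, with a summed level of 4646 to 4772 CPM in control and 6696 to 6731 CPM in resistant libraries. In bulk RNA, fewer cells that make a transcript and less of it per cell cannot be told apart.

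The promoters are shown because the X and Y boxes are what class II genes and CD74 are known to share. RefSeq promoters (GRCh38.p14, 250 bases before to 50 after the transcript start) were matched for 8 of the 10 members. The stretches below are read 5′ to 3′ on the strand of each gene. Capitals mark X box letters (CNAGNNA with TG 4 bases on) and the Y box core, ATTGG or its complement CCAAT. They lie at chr5:150412951-150413001 (minus strand) for CD74, chr6:32589882-32589937 (minus) for HLA-DRB1, chr6:32666733-32666788 (minus) for HLA-DQB1, chr6:33075848-33075903 (plus) for HLA-DPB1, chr6:32953164-32953220 (minus) for HLA-DMA, chr6:32941038-32941126 (minus) for HLA-DMB and chr6:32637293-32637350 (plus) for HLA-DQA1.
CD74: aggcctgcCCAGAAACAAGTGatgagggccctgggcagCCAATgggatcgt
HLA-DRB1: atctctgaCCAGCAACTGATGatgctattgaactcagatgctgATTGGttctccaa
HLA-DQB1: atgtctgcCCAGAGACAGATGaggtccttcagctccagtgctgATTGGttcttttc
HLA-DPB1: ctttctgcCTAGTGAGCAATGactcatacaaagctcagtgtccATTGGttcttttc
HLA-DMA: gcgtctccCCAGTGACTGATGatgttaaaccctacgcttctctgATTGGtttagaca
HLA-DMB: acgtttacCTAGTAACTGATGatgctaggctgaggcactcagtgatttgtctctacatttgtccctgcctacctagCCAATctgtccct
HLA-DQA1: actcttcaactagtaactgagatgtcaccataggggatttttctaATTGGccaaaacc

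In CD74, HLA-DRB1, HLA-DQB1, HLA-DPB1 and HLA-DMA the Y core began 17 to 23 bases after the X letters. In HLA-DMB it began 55 bases after them, and HLA-DQA1 held the Y core without these X letters. HLA-DPA1, the other matched member, is not shown. It held the X letters, but none lay on its own strand fully before the transcript start, and it lacked the Y core. The X letters were loosened after the promoters were read, so these counts describe the members only. Among 35116 promoters of the table, searched on both strands, 12.2% held the X letters and 34.61% the Y core, and 0.253% (89) held both with 15 to 25 bases between them. The stricter letters showed less in common. The full Y box CTGATTGG, which contains the core, was in 3 of 8 members and 3.97% of all promoters, the X stretch CCTAGNNAC in 1 of 8 and 3.08%, and the interferon-type letters TTCNNNGAA in 1 of 8 (HLA-DQA1) and 7.66%. The X2 letters TGCGTCA were in 0 of 8 members and 2.47% of promoters. A match of letters is a description and not a binding site.

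**Figure D1:**
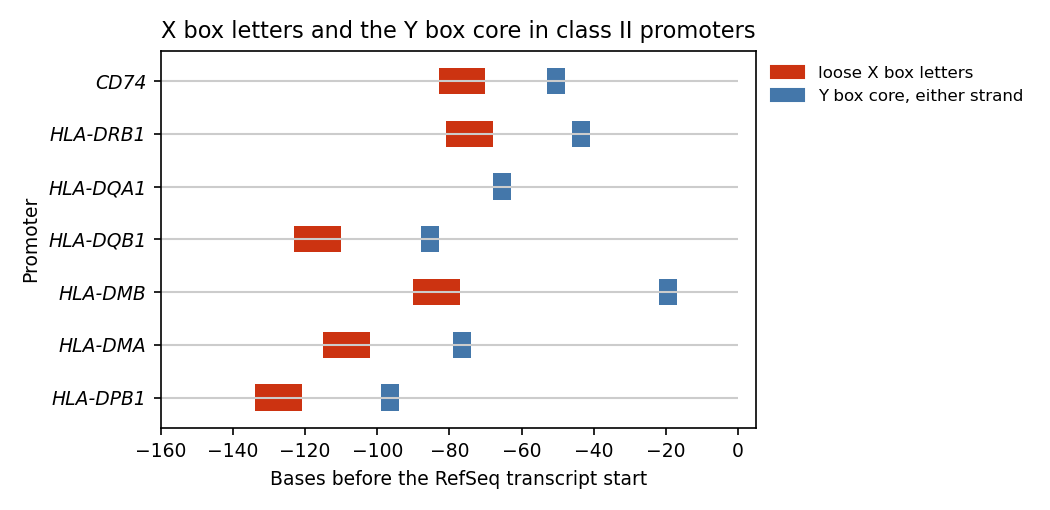
Position of the loose X box letters (red) and of the Y box core on either strand (blue) in 7 class II and CD74 promoters. Positions are in bases before the RefSeq transcript start. HLA-DPA1, with no X letters on its own strand fully before its start and no Y core, is left out. In 5 of them the boxes are 17 to 23 bases apart, in HLA-DMB they are 55 apart, and HLA-DQA1 has the Y core alone.

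CIITA, on chromosome 16 at 10866222 to 10943021 (GRCh38, plus strand), was modestly higher in resistant cells. Its counts were 54 and 48 in the control libraries and 175 and 152 in the resistant libraries, here and below with replicate 1 first, which is 2.27 and 1.71 CPM against 3.63 and 3.67 CPM. The groups did not overlap, and the resistant pair differed by 1.04%, the control pair by 32.4%. The log2 fold change was 0.89 (SE 0.164), a 1.85-fold difference. With a correction for gene length and GC content it was 0.38 (SE 0.168), and CIITA then no longer passed the threshold used for calls. Of its exonic bases 23.4% also lie in other annotated genes (4859 bases, 2416 of them in DEXI), where reads can be missing or split. Gene counts do not tell its alternative first exons apart.

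CD74, on chromosome 5 at 150401637 to 150412929 (minus strand), showed a far larger difference. Its level was 1.43 and 1.60 CPM in the control libraries and 26.3 CPM in both resistant libraries, from 34 and 45 against 1270 and 1091 counts. The log2 fold change was 4.11 (SE 0.0948), a 17.3-fold difference, against 1.85-fold for CIITA. No exonic base of CD74 lies in another annotated gene, and no 50-base stretch of its transcripts recurs in another gene's transcripts.

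The DR genes, which encode the class II pair usually made in the greatest amount, were both higher. HLA-DRA, the DR alpha chain on chromosome 6 at 32439842 to 32445046, was at 4.24 and 4.53 CPM in control and 31.7 and 30.3 CPM in resistant libraries. Its log2 fold change was 2.82 (SE 0.0779), a 7.06-fold difference, and its sequence, like that of CD74, is shared with no other gene at 50 bases. HLA-DRB1, the DR beta chain on chromosome 6 at 32578769 to 32589848, was at 0.420 and 0.392 CPM in control and 8.54 and 8.78 CPM in resistant libraries. The control level rested on 10 and 11 counts. The log2 fold change of 4.41 (SE 0.173), or 21.2-fold, was the largest of the 10 members. Of the 50-base stretches of HLA-DRB1 transcripts, 9.9% recur in other genes, mostly in HLA-DRB5, so reads can be split between the pair. HLA-DRB5 had 2 and 4 control and 105 and 84 resistant counts, with a log2 fold change of 4.15 (SE 0.323). It passed the filter on low counts only through the resistant libraries, where it is high. Alleles of the line that differ from the reference can also lose reads in these polymorphic genes.

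The DP genes lie head to head on chromosome 6, HLA-DPA1 (alpha chain) at 33064569 to 33080775 and HLA-DPB1 (beta chain) at 33075926 to 33087201, and overlap in 96 exonic bases. HLA-DPA1 was at 1.01 and 0.392 CPM in control and 8.40 and 7.77 CPM in resistant libraries, a log2 fold change of 3.57 (SE 0.229). Its control libraries stood further apart than for any other member, at 24 and 11 counts, and the value was 4.36 without control replicate 1 and 3.01 without control replicate 2. HLA-DPB1 was at 0.461 and 0.499 CPM in control and 3.07 and 3.33 CPM in resistant libraries, a log2 fold change of 2.72 (SE 0.217). In both genes the groups did not overlap.

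The DQ genes differed from each other in their control level. HLA-DQA1, the DQ alpha chain at 32628179 to 32647062, had 4 and 7 control counts and 149 and 115 resistant counts, or 0.168 and 0.2495 against 3.09 and 2.77 CPM. Its log2 fold change was 3.77 (SE 0.273). HLA-DQB1, the DQ beta chain at 32659467 to 32668383, was at 2.81 and 1.89 CPM in control and 8.03 and 7.70 CPM in resistant libraries, and its log2 fold change was 1.76 (SE 0.151). The control libraries thus held HLA-DQB1 reads with very few of HLA-DQA1, and in HLA-DQB1 241 exonic bases overlap the antisense gene HLA-DQB1-AS1, which had at most 5 counts in a library.

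The DM genes, whose product loads peptide and stays in endosomes, showed smaller differences than the DR and DP genes. HLA-DMA, at 32948613 to 32969094, was at 2.81 and 3.03 CPM in control and 5.19 and 4.95 CPM in resistant libraries, a log2 fold change of 0.79 (SE 0.129), the smallest of the members. HLA-DMB, at 32934629 to 32941070, was at 1.05 and 1.18 CPM in control and 3.63 and 3.57 CPM in resistant libraries, a log2 fold change of 1.69 (SE 0.171). Of their exonic bases 9.0% and 9.4% lie in other annotated genes.

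**Figure D2:**
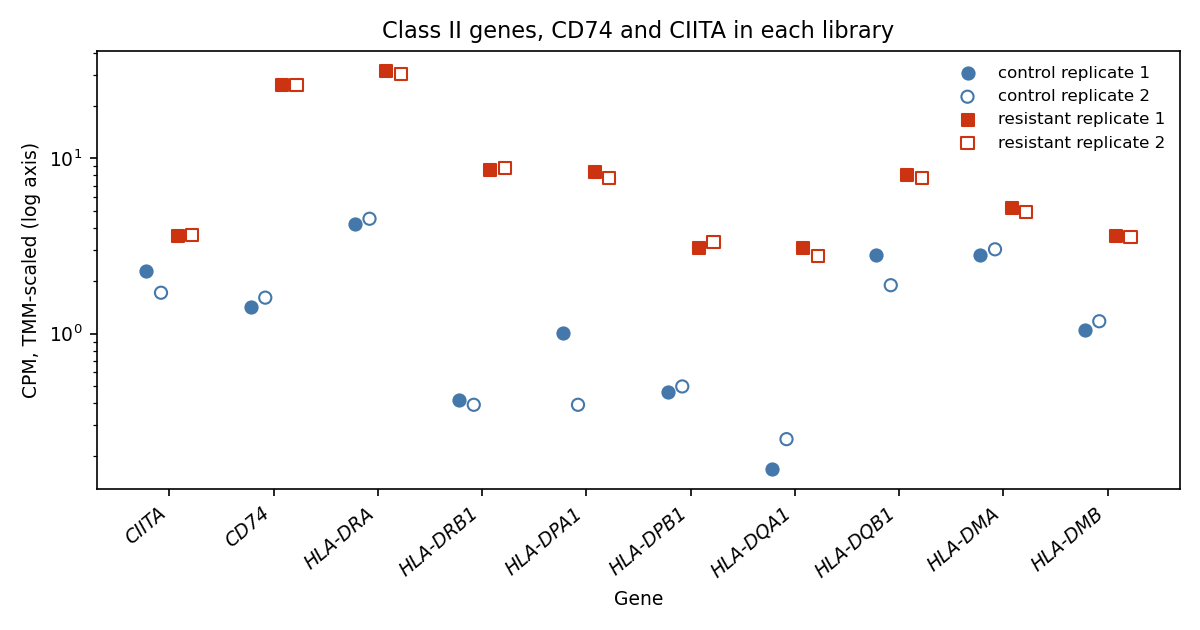
CPM of each member on a log axis in control replicates (blue circles) and resistant replicates (red squares), with replicate 2 as open symbols. HLA-DRA and CD74 are highest in resistant libraries, at 26.3 to 31.7 CPM, and CIITA and HLA-DMA show the narrowest gaps between the groups. The members were chosen on these libraries, so nothing is read from the separation of the groups.

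All 10 members passed the filter on low counts, HLA-DQA1 (4 and 7 control counts) only through the resistant libraries, where it is high. All 10 were past the call threshold (edgeR adjusted p below 0.05) in the higher direction. Over all 20325 genes tested, 33.0% were called higher and 31.7% lower, so most genes differed in these libraries. How many of all genes had groups that did not overlap was not counted. Nothing is read from the count of members, or from groups that did not overlap, because the contrast was used to choose the members. Their log2 fold changes ran from 0.79 to 4.41 with a median of 2.77, where all genes tested had a median of -0.0162. Of the 10, 4 differed by at least 10-fold (HLA-DRB1, CD74, HLA-DQA1 and HLA-DPA1). Summed over the members, the level was 16.7 and 15.5 CPM in control and 101.6 and 99.2 CPM in resistant libraries, a ratio of 6.25. As a sum, the members are thus measurable in control cells, though HLA-DQA1 is near the floor there. Control levels of HLA-DRB1 (10 and 11 counts), HLA-DPB1 (11 and 14) and HLA-DPA1 (24 and 11) also rest on few reads. The members remain a small share of all gene reads in resistant cells.

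**Figure D3:**
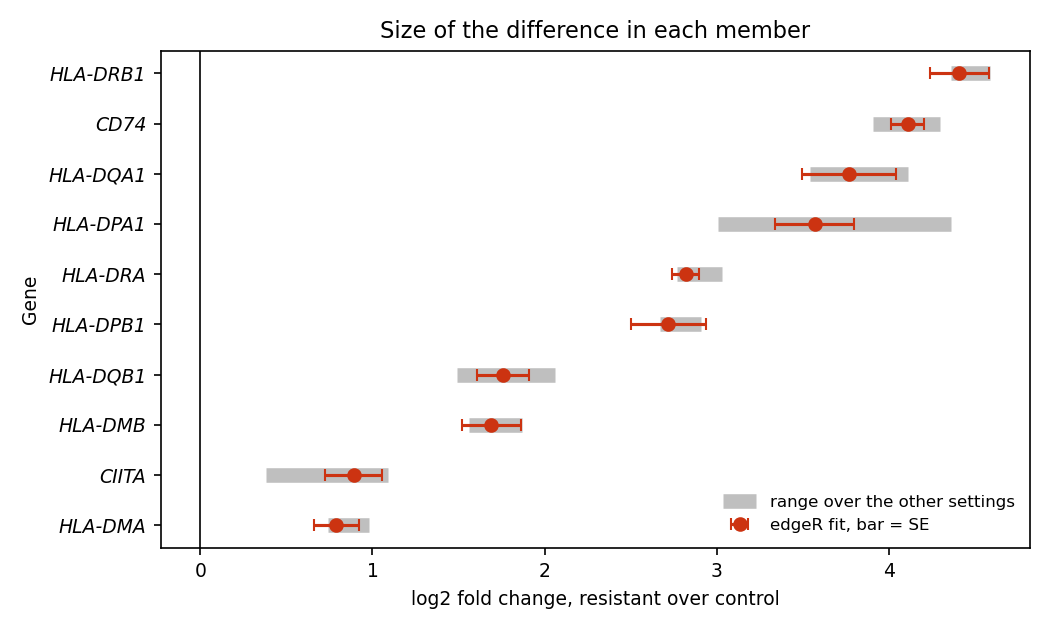
The log2 fold change of each member, resistant over control, as a point with its SE, with a grey bar for its range over the other settings. All values and ranges lie above 0, from 0.79 for HLA-DMA to 4.41 for HLA-DRB1, and the bars are widest for HLA-DPA1 (3.01 to 4.36) and CIITA (0.38 to 1.09).

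Levels of different genes were compared as CPM per kilobase of annotated exonic sequence. In resistant cells the order was HLA-DRA (24.2 ± 0.789), CD74 (8.27 ± 0.00391), HLA-DRB1 (7.05 ± 0.137), HLA-DMA (2.00 ± 0.0667), HLA-DQB1 (1.60 ± 0.0476), HLA-DPA1 (1.41 ± 0.0776), HLA-DPB1 (1.15 ± 0.0659), HLA-DMB (0.773 ± 0.00892), HLA-DQA1 (0.423 ± 0.0322) and CIITA (0.176 ± 0.00129; SD, n = 2 for each). No neighbours in this order overlapped between their libraries. In control cells HLA-DRA (3.42 ± 0.160) and HLA-DMA (1.15 ± 0.0610) led. HLA-DQB1 and CD74 overlapped there, at 0.479 ± 0.133 and 0.476 ± 0.0394, and HLA-DPA1 overlapped with both HLA-DPB1 and CIITA. CD74 thus moved from the fourth to the second place. The order depends on the length used: per kilobase of the longest principal transcript, a choice made after the data were seen, CD74 stood at 26.8 ± 0.0127 in resistant cells, above HLA-DRA at 24.2 ± 0.789. By that length HLA-DPA1 moved there from place 6 to 4 and HLA-DMA from 4 to 6, and HLA-DPB1 and HLA-DMB traded places 7 and 8. The resistant libraries of HLA-DPA1, HLA-DQB1 and HLA-DMA overlapped by that length, so places 4 to 6 are not told apart. CIITA was last there by either length, 20757 or 16059 bases.

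The class II region of chromosome 6, from BTNL2 to COL11A2 (32393963 to 33192499), holds 8 of the members and 33 other genes of the files. Of these others 10 were tested, and 6 rose and 1 fell, against 33.0% and 31.7% of all genes. The 6 include HLA-DRB5, which passed the filter only through the resistant libraries and shares stretches of sequence with the member HLA-DRB1. TAP1, which carries peptides into the endoplasmic reticulum for class I molecules, rose from 21.6 ± 1.25 to 57.9 ± 2.54 CPM (log2 fold change 1.42, edgeR adjusted p = 1.89e-09). PSMB9, an immunoproteasome subunit, rose from 1.60 ± 0.00676 to 6.0 ± 0.215 CPM (log2 fold change 1.90, edgeR adjusted p = 2.35e-07). Their neighbour TAP2 was at 6.87 ± 0.491 and 6.91 ± 0.264 CPM (log2 0.01, edgeR adjusted p = 0.936). The gene that fell was the pseudogene HLA-DRB6 (log2 fold change -0.68, edgeR adjusted p = 0.0469), which was not called with total count scaling, DESeq2, no count filter, the length and GC correction, or without control replicate 2 or resistant replicate 2. HLA-DOA and HLA-DOB, which encode the B cell inhibitor of HLA-DM, did not pass the filter, with 2 and 0 against 2 and 4 counts for HLA-DOA and 1 and 1 against 3 and 1 for HLA-DOB.

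**Figure D4:**
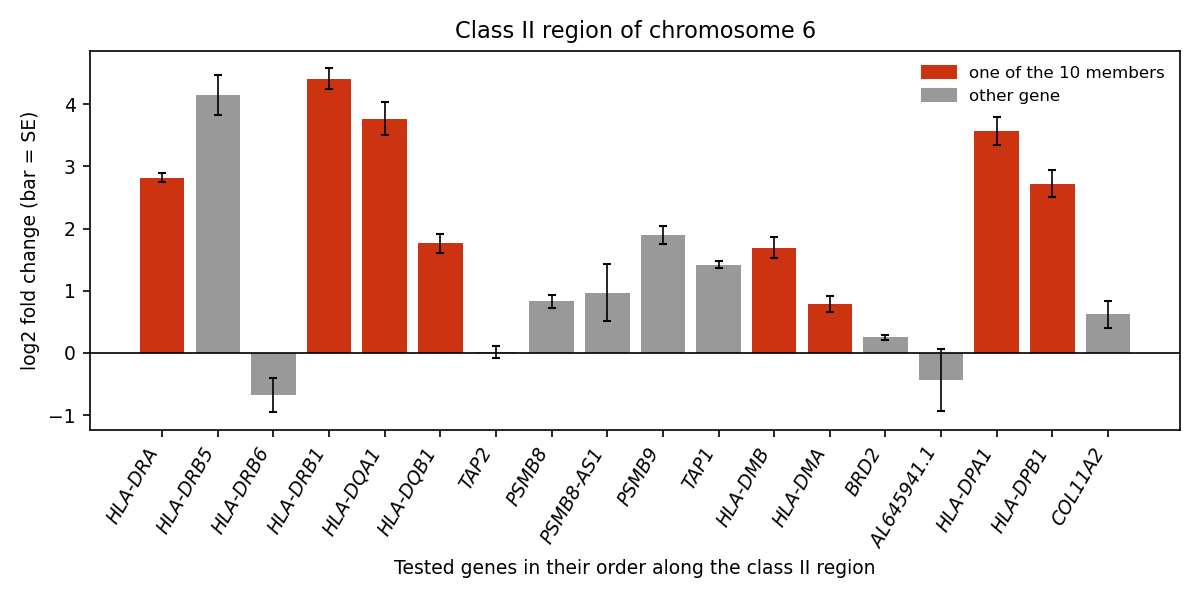
The log2 fold change (bars, with SE) of the 18 tested genes of the class II region, in their order along chromosome 6, with members in red and other genes in grey. The tallest bars are members and HLA-DRB5, towards both ends of the region. Between them PSMB9 (1.90), TAP1 (1.42) and PSMB8 (0.83) are higher as well, while TAP2 (0.01) and BRD2 (0.25) sit near 0. PSMB9 stands above the members HLA-DQB1 (1.76), HLA-DMB (1.69) and HLA-DMA (0.79).

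Factors that bind class II promoters had small log2 fold changes, from -0.39 to 0.44. Of 7 genes tested, 3 rose and 2 fell, with a median log2 fold change of 0.16, beside 33.0% and 31.7% of all genes tested. With the length and GC correction 2 of the 7 rose and 1 fell (median 0.01), and with DESeq2 3 rose and 1 fell. With total count scaling (median 0.35), no count filter (0.25) and the replicate block (0.16), 4 rose and 1 fell. Leaving out 1 library gave medians from 0.07 to 0.19. RFX5, the DNA-binding subunit of RFX, went from 79.7 ± 4.16 to 91.4 ± 0.480 CPM (log2 fold change 0.20, edgeR adjusted p = 0.00308), and 0.042 (adjusted p = 0.376) with the length and GC correction. Its partners RFXANK and RFXAP did not pass the test, with log2 fold changes of 0.16 and -0.21 (edgeR adjusted p = 0.0548 and 0.109). Both signs turned with that correction. RFXANK was called higher with total count scaling (0.35, edgeR adjusted p = 0.00106), no count filter (0.25, 0.00146) and the replicate block (0.16, 0.044). Without control replicate 2 the log2 fold changes of RFXANK and RFXAP were 0.28 and -0.29. The NF-Y subunits NFYA and NFYC rose by log2 fold changes of 0.44 and 0.42, and NFYB fell by 0.39. All 6 genes listed as coactivators or partners of CIITA rose (median 0.47), among them CTCF (0.55), CREBBP (0.59) and KAT2B (0.54). After correction for length and GC, 2 passed as higher, CTCF (0.24) and KAT2B (0.48), and 1 as lower (median -0.01). CREBBP then stood at 0.039 (edgeR adjusted p = 0.49).

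Genes of the interferon gamma route to CIITA were mostly higher, without a read of the cytokine itself. Of 10 tested, 6 rose and 1 fell (median 0.36), beside 33.0% and 31.7% of all genes tested. The gene that fell was PTPN2 (log2 fold change -0.70). With a filter of 1 CPM in 2 libraries, 2 fell. IFNG had 0 counts in all 4 libraries, which allows up to 0.0578 CPM over the control and 0.0335 CPM over the resistant pair, counting error only. IRF1, a factor that acts on the CIITA promoter, rose from 4.54 ± 0.0767 to 11.4 ± 0.179 CPM (log2 fold change 1.33, edgeR adjusted p = 9.21e-08). The kinase JAK2 rose by a log2 fold change of 0.95. Among other regulators of CIITA, 6 were tested, and 1 rose and 3 fell (median -0.16). Scaling by total count gave 2 higher and 2 lower (median 0.03), the length and GC correction 1 and 5 (median -0.47), a filter of 1 CPM in 2 libraries 1 and 5 (median -0.21), and no count filter 1 and 2 of 10 tested (median 0.39). EZH2, a histone methyltransferase that can silence CIITA, fell from 89.7 ± 0.690 to 45.02 ± 0.847 CPM (log2 fold change -0.99, edgeR adjusted p = 1.92e-09). The deacetylase HDAC2 fell by 0.46 on the log2 scale, and the DNA methyltransferase DNMT3A rose by 0.82.

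Genes of endosomal antigen processing, mostly proteases that cut antigen and invariant chain, were mostly higher. Of 11 tested, 8 rose and 2 fell (median 0.81), beside 33.0% and 31.7% of all genes tested. The 8 include CST3, which encodes cystatin C, an inhibitor of cathepsins and not a protease (log2 fold change 0.60). None fell with total count scaling, and 1 fell with no count filter and without control replicate 2 or either resistant library. CTSS, cathepsin S, which makes the last cuts in CD74, had 20 and 27 counts in control and 276 and 248 in resistant libraries, and rose from 0.901 ± 0.0871 to 5.85 ± 0.183 CPM (log2 fold change 2.69, edgeR adjusted p = 4.12e-08). LGMN, an endosomal protease that can start the trimming of CD74, rose from 54.3 ± 0.635 to 123.4 ± 0.116 CPM (log2 fold change 1.18). CTSB and CTSF, further cathepsins, rose by log2 fold changes of 0.84 and 0.83. IFI30, an interferon-induced thiol reductase of the same compartment, did not pass the filter, with 4 and 12 control and 3 and 3 resistant counts. Of 6 turnover and tetraspanin genes, 5 rose and 1 fell (median 0.40), with 3 and 2 after correction for length and GC and no fall with total count scaling, DESeq2, no count filter or without resistant replicate 2. The tetraspanin CD82 rose from 7.31 ± 0.160 to 26.2 ± 0.505 CPM, CD63 rose by a log2 fold change of 0.57, and MARCHF8, a ubiquitin ligase of the MARCH family, rose by 0.80.

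CD74 is also a receptor for the cytokine MIF. In contrast to CD74, MIF fell from 38.3 ± 2.90 to 17.1 ± 2.07 CPM (log2 fold change -1.16, edgeR adjusted p = 1.77e-07), and its homologue DDT fell from 61.5 ± 5.00 to 27.5 ± 1.47 CPM (log2 fold change -1.16). Of the co-receptors, CD44 had 6 and 0 against 16 and 16 counts, CXCR4 2 and 2 against 12 and 8 counts, and ACKR3 rose by a log2 fold change of 0.29. CD44 was not called (log2 fold change 1.60, edgeR adjusted p = 0.072), but was called with total count scaling, without a count filter, with the replicate block and without control replicate 1 (adjusted p from 0.000519 to 0.049). Its log2 fold change was 6.82 without control replicate 1 and 0.51 without control replicate 2.

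The costimulatory genes CD80, CD86 and CD40 were low. CD80 had 5 and 4 control and 4 and 4 resistant counts, CD86 1 and 1 against 2 and 0, and CD40 3 and 9 against 11 and 7, and none of them passed the filter. Of 7 costimulatory and inhibitory ligands tested, 4 rose and 2 fell (median 0.57). Only 1 fell with total count scaling, DESeq2, no count filter or the length and GC correction. VTCN1, 1 of the 4, passed the filter only through the resistant libraries, with 5 and 3 control and 40 and 28 resistant counts. CD274, which encodes the inhibitory ligand PD-L1, rose from 0.925 ± 0.00259 to 5.96 ± 0.610 CPM (log2 fold change 2.69, edgeR adjusted p = 6.61e-08). CD276 rose by a log2 fold change of 0.57, and the adhesion ligand CD58 fell from 28.9 ± 1.37 to 11.6 ± 0.0725 CPM (log2 fold change -1.32). For comparison, 10 of 12 genes of the class I route rose and B2M, the class I light chain, fell (median 1.08), with 9 and 2 after the length and GC correction. HLA-B and TAPBP rose by log2 fold changes of 1.79 and 1.09. NLRC5, the relative of CIITA for class I genes, rose by 0.86 (edgeR adjusted p = 6.93e-05), and by 0.27 (adjusted p = 0.0512) with the length and GC correction. Over all 98 pathway genes outside the members, 71 were tested, and 45 rose and 15 fell, with a median of 0.44. The 45 include HLA-DRB5 and VTCN1, which passed the filter only through the resistant libraries. Of all genes tested, 33.0% rose and 31.7% fell. The length and GC correction gave 38 pathway genes higher and 17 lower, with a median of 0.26. Scaling by total count gave 50 higher and 8 lower, and it shifts the median of all genes by 0.188.

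**Figure D5:**
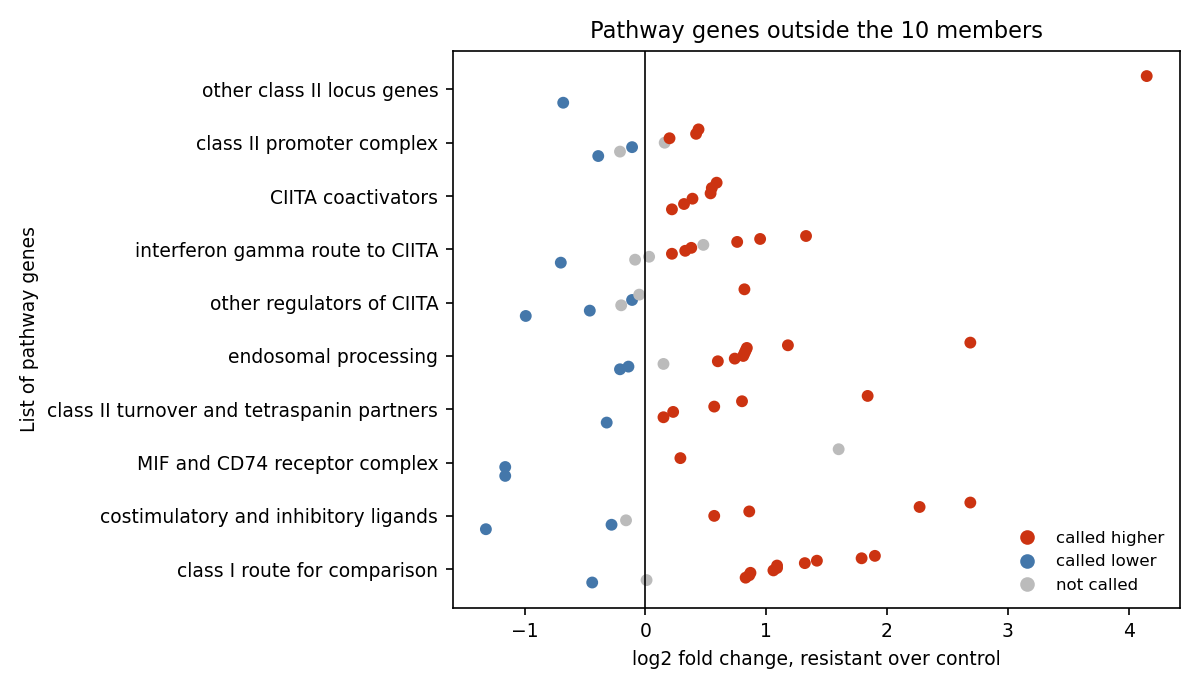
The log2 fold change of each tested pathway gene outside the 10 members, by list, in red where called higher, blue where called lower and grey where not called. CTSS and CD274 stand at 2.69 and HLA-DRB5 at 4.15, MIF and DDT at -1.16, and the promoter factors lie between -0.39 and 0.44.

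Since B cells and myeloid cells make class II, their markers were measured beside the members. Of 8 leukocyte markers, CD3E, CD3D, CD2 and TRAC were at 0 in every library, and PTPRC (CD45) had 2 and 3 against 4 and 2 counts. The list summed to 1.13 and 1.28 CPM in control and 1.35 and 0.917 CPM in resistant libraries. The 6 B cell markers summed to 0.210 and 0.2495 CPM in control and 0.166 and 0.0724 CPM in resistant libraries, and none passed the filter. The 11 monocyte, macrophage and dendritic cell markers summed to 3.19 and 3.21 CPM in control and 5.14 and 5.48 CPM in resistant libraries, with 1 (CD1C) at 0 throughout. Of the 3 tested 1 rose: ITGAM, an integrin chain, went from 0.314 ± 0.0906 to 3.21 ± 0.241 CPM (log2 fold change 3.37). With 9 and 7 control and 163 and 126 resistant counts, ITGAM passed the filter only through the resistant libraries, where it is high. Its test is therefore not used. CD14 had 4 and 1 against 3 and 3 counts and TYROBP at most 1.

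By their levels in the 4 libraries, each taken as a difference from the control mean in log2 CPM, 5 protein-coding genes lay nearest to CD74 among the 9898 outside the members whose log2 CPM averaged 3.0 or more. Lower genes, HLA-DRB5 among them, were not ranked. They were TENM2 (distance 0.133), LRRN1 (0.315), LRRTM4 (0.430), IGFBP3 (0.647) and PGR (0.726). This likeness rests on 4 libraries in 2 groups and is a description: TENM2, the nearest, went from 2.65 ± 0.241 to 47.8 ± 2.42 CPM.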

How the data were processed

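Raw read counts per gene were deposited by the authors, 1 table per library, without normalization. Per the submitters' processing notes, STAR 2.5.2b was the aligner, HTSeq the counter and GRCh38 (hg38) the build. For HTSeq, its version, mode, strand setting and gene annotation were not given in the sources used here. Each file ends in 5 summary rows, 55.41% to 74.4% of its records, which entered neither library sizes nor tests. Counts were filtered with filterByExpr (minimum count 10), given TMM factors and tested by edgeR 4.0.16 (quasi-likelihood F test, R 4.3.3), resistant against control, over all 20325 genes, with Benjamini-Hochberg adjustment and a threshold of 0.05. The SE is the log2 fold change divided by the square root of F. Values with ± are mean and SD over 2 libraries.

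On simulated counts for the 20325 genes of this comparison the fit was tested before use. Positions, exonic lengths and shared 50-base stretches came from GENCODE 29, and promoters from RefSeq. The alternatives were total count scaling, DESeq2 1.42.0, other count filters, a replicate block, a smooth length and GC correction per library (mgcv 1.9.3) and leaving out each library.

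The members and lists were chosen with earlier results of these data known. All members were named. From each pathway list the 3 called genes with the smallest adjusted p and at least 5 CPM in a group were named, with a set of genes named whatever their values (some of either kind are not reported here), and other genes named with values were chosen after these were seen. From the class II region the 3 other called genes with the smallest adjusted p were named.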

Additional observations from a re-analysis of the deposited data

How the results depend on the processing

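All 10 members kept a log2 fold change above 0 under each of the 10 settings tried. Over the resulting 100 values, 73 moved by less than the SD between replicates and 27 by more, and 9 members stayed called higher with the length and GC correction, where CIITA did not. HLA-DPA1 was the 1 member whose fold moved by over 1.5 times, without control replicate 1. The numbers of pathway genes called lower (15) became 8 with total count scaling and 9 without a count filter, and ranged from 9 to 16 when 1 library was left out. The count of other region genes called lower (1) became 0 with total count scaling, with DESeq2, without a count filter and with a filter of 1 CPM, 2 with the length and GC correction, and 0 to 1 when 1 library was left out. RFXANK and RFXAP turned sign with that correction, to -0.0058 and 0.0078. Over all genes, total count scaling gave 8615 calls higher and 4761 lower, against 6705 and 6443. The replicate block gave 6647 higher and 6444 lower calls, and 10 members higher. Deviations of same-numbered libraries correlated at -0.215 over 10425 genes, so the numbers are not shown to pair the samples, and crossed numbers, added after the data were seen, gave 6988 and 6753. Low counts limit the control levels of HLA-DQA1, HLA-DRB1, HLA-DPB1 and HLA-DPA1.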

Other observations

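Chain partners of class II pairs came in other proportions in the 2 groups. Per kilobase of the longest principal transcript, HLA-DRA exceeded HLA-DRB1 9.70-fold and 11.1-fold in control replicates 1 and 2 and 3.57-fold and 3.31-fold in resistant replicates 1 and 2. HLA-DQA1 stood at 0.0651 and 0.144 of HLA-DQB1 in control and at 0.420 and 0.393 in resistant libraries. HLA-DMA exceeded HLA-DMB 3.33-fold and 3.20-fold in control and 1.78-fold and 1.72-fold in resistant libraries. In each of these pairs the chains came closer to each other in resistant libraries. This restates their unequal log2 fold changes in the contrast that chose the members, so nothing is read from the separation of the groups. The DR and DQ control ratios rest on 10 and 11 HLA-DRB1 counts and on 4 and 7 HLA-DQA1 counts. HLA-DRB5, with 105 and 84 resistant counts, was not part of the DR ratio. The ratio of HLA-DPA1 to HLA-DPB1 was 2.00 and 0.719 in control and 2.51 and 2.14 in resistant libraries. For that ratio the control libraries stood further apart than the nearest values of the groups. The ratio of CD74 to HLA-DRA went from 0.439 and 0.462 to 1.08 and 1.13. These ratios were computed after the members' values were seen and were not tested.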
